A study of Mus musculus with 6 samples.

Results

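Aminoacyl-tRNA synthetases were examined in whole hearts of mice that lack cyclophilin D and of wild-type mice. The members were the probe sets whose single annotated gene symbol was one of 36 listed synthetase genes, or that name with the suffix 1, and 34 genes were measured this way by 35 of the 35557 probe sets on the array. They comprised 18 of the 20 listed cytosolic enzymes and all 16 listed mitochondrial enzymes, which carry the suffix 2. The cytosolic enzymes for alanine (Aars) and aspartate (Dars) were not analysed here. Each of the 6 hearts was hybridised to its own Affymetrix Gene 1.0 ST array, on which groups of short probes (probe sets) measure the transcripts. The compared groups were 3 hearts of Ppif-/- mice, a global knockout brought to C57BL/6 from Sv129 by backcrossing, and 3 hearts of wild-type C57BL/6 (WT) mice, all aged 8 weeks. The gene is missing in every tissue of these animals and not in heart muscle alone, and the series was designed to look at expression at an age when the heart still functions. The labels number the hearts but do not say whether WT mice were littermates. A difference between genotypes therefore cannot be told apart from one between the mouse lines. The p-values weigh each difference against the variation between these hearts. For this, limma drew each probe set's variance toward a value shared by all tested probe sets. Standard errors, given after ±, hold that shared part too, so they are not the spread of a gene's own hearts alone.

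An aminoacyl-tRNA synthetase joins an amino acid to the tRNA that reads its codons, the step that sets the genetic code before the ribosome is reached. The cytosolic and mitochondrial sets are both encoded in the nucleus, and the mitochondrial set serves translation of the few respiratory chain proteins made inside the organelle, which the heart needs in quantity. Several cytosolic enzymes sit in a multisynthetase complex held by the scaffold proteins AIMP1, AIMP2 and AIMP3. Many cytosolic synthetase genes are known targets of ATF4, the transcription factor of the amino acid response, together with asparagine synthetase.

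Ppif itself lay between 6.00 and 6.44 in Ppif-/- hearts and between 11.28 and 11.49 in WT hearts on the log2 scale, as the genotype labels state. Cardiomyocyte markers averaged 13.47 to 13.48 in Ppif-/- and 13.47 to 13.51 in WT hearts. That average joined members that lay on opposite sides. Ryr2 was lower in every Ppif-/- heart than in every WT heart (-0.19 ± 0.06), and Myl2 was higher in every one (0.07 ± 0.06). Neither was called in limma, and the other 4 of the 6 genes overlapped between the genotypes. Skeletal muscle markers averaged 4.93 to 5.08 in Ppif-/- and 4.89 to 4.96 in WT hearts. Among markers of other heart cells, 1 of 6 fibroblast genes (Pdgfra) and 1 of 5 smooth muscle and pericyte genes (Tagln) were lower and 1 of 5 macrophage genes (Cd68) was higher past an adjusted limma p of 0.05, where 0.461% of all tested probe sets were lower and 0.624% higher. Other members of these lists lay on the opposite side of 0 without passing. These were Col1a1 (0.21 ± 0.11) and Col1a2 (0.27 ± 0.13) for fibroblasts, Rgs5 (0.27 ± 0.07, every Ppif-/- heart higher) for pericytes and Csf1r (-0.10 ± 0.06, every Ppif-/- heart lower) for macrophages. The endothelial (5 genes), skeletal muscle (4), erythroid (1) and nerve and glia (2) lists gave 0 calls in limma. The macrophage list averaged 8.24 to 8.43 in Ppif-/- and 8.08 to 8.10 in WT hearts, and the smooth muscle list 9.91 to 9.94 and 10.03 to 10.22. The part of these cell types in the synthetase values was not tested. In whole tissue, fewer cells of a type and less RNA per cell cannot be told apart.

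No synthetase transcript passed the threshold between the genotypes, an adjusted p of 0.05 in limma. The count was 0 of 18 for cytosolic and 0 of 16 for mitochondrial enzymes, beside 1.09% of all 23410 tested probe sets. At an unadjusted limma p under 0.05, 6 of the 34 genes were lower and 0 higher in Ppif-/- hearts, against 6.81% lower and 6.1% higher among all tested probe sets. These 6 were Vars2, Gars, Cars, Iars2, Hars and Farsa. With any 1 of the 6 hearts left out, 3 genes were lower at that level each time. Vars2 was among them in all 6 cases and Gars in 4, while Hars and Farsa were in 2, and Cars and Iars2 in 1. Hars2 and Wars, which were not among the 6 genes, each entered in 1 case.

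The members lay mostly on the lower side in Ppif-/- hearts. Differences, given throughout as Ppif-/- minus WT on the log2 scale, were below 0 for 16 of 18 cytosolic and 10 of 16 mitochondrial genes, where 50.8% of all tested probe sets were below 0. Their median was -0.080 for cytosolic and -0.036 for mitochondrial enzymes, and -0.0023 over all tested probe sets. The mitochondrial median was -0.0194 without Ppif-/- heart 1, -0.0574 without WT heart 3 and -0.0223 with array weights. In 13 of 34 genes (38.2%) every Ppif-/- heart lay below every WT heart, and in 0 genes every Ppif-/- heart lay above. Among all tested probe sets the shares were 10.6% and 9.21%, and among the brighter probe sets, to which 33 of the 34 genes belong, 15.1% and 11.6%. Those brighter probe sets also held larger shares in the fit of all tested probe sets, with 1.73% called (0.991% higher and 0.735% lower), 7.62% higher and 9.24% lower at an unadjusted p under 0.05, and 54.3% below 0. The 13 genes were 9 cytosolic and 4 mitochondrial, and since all are read on the same 6 arrays they are not independent of each other.

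**Figure D1:**
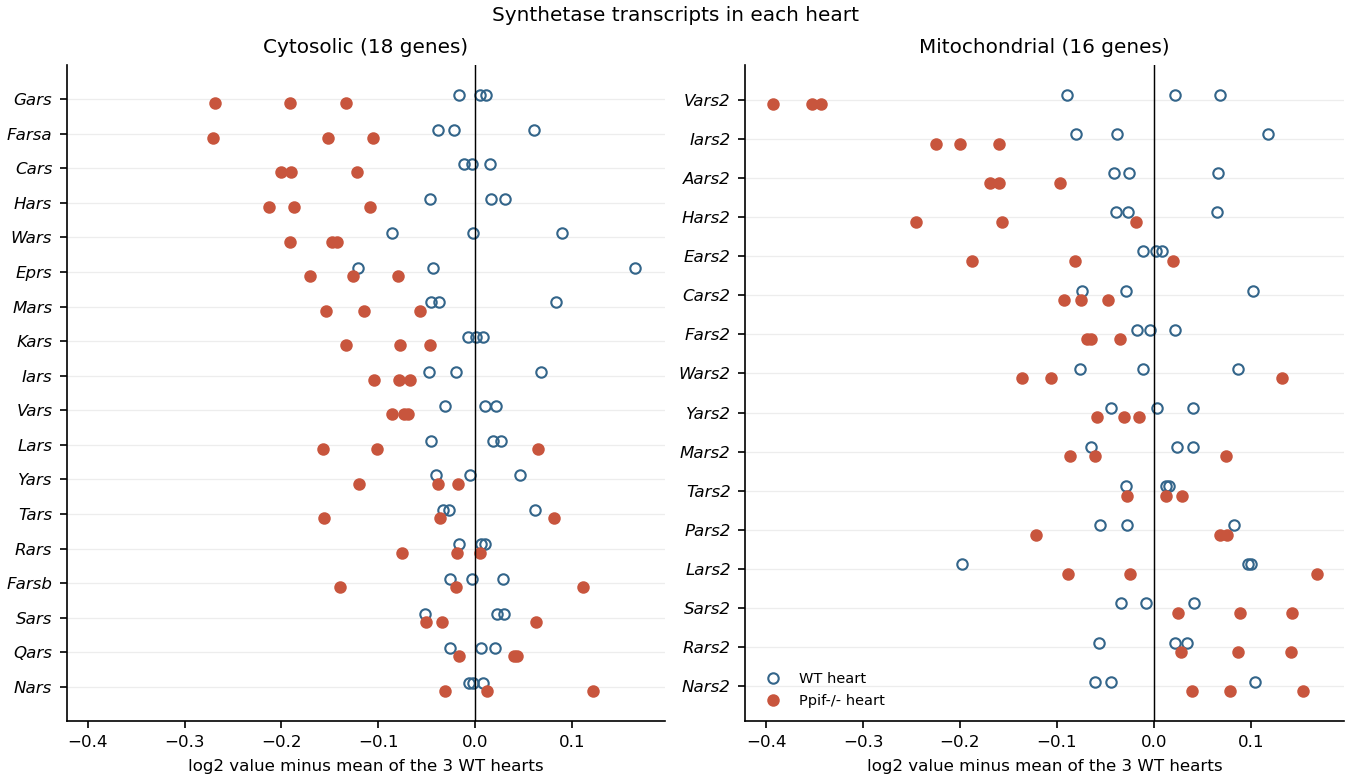
Each point is 1 heart, placed by its log2 value minus the mean of the 3 WT hearts for that gene (x axis), with a row for each synthetase gene ordered by the difference between genotypes. Filled Ppif-/- points lie left of all open WT points for 13 genes, most clearly for Vars2, and are mixed with them for the other 21.

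The fit gave a range for the difference of each gene taken alone, on the scale of the deposited values. These ranges do not hold jointly for all 34 genes. The 95% confidence intervals of the 34 differences all lay between -0.52 and 0.27, and 28 of them included 0. For cytosolic enzymes the bounds were -0.35 and 0.19, so that an increase by more than 0.19 lay outside the interval of each of those 18 genes. Standard errors ran from 0.06 to 0.11 and standard deviations within a genotype from 0.008 to 0.17. Through the shared variance, Fars2 had a standard error of 0.061 beside standard deviations of 0.019 in Ppif-/- and 0.020 in WT hearts. In simulated arrays of the same comparison, 54% of changes of log2 size 0.5 and 78% of size 1 were recovered. The changed probe sets were drawn from all tested ones, dim ones included, and no change smaller than 0.5 was simulated. These shares therefore do not say how often a change of the size seen in synthetases would be missed.

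**Figure D2:**
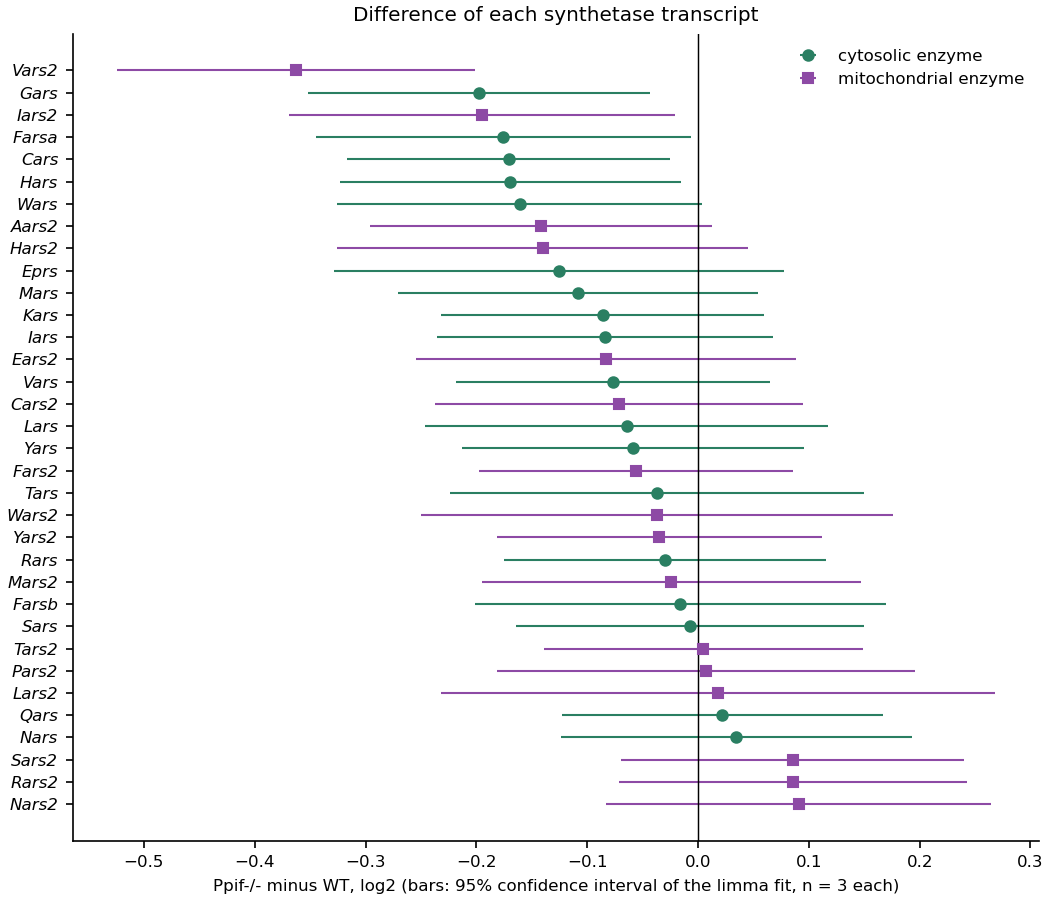
Points give the difference between the mean of 3 Ppif-/- and the mean of 3 WT hearts (log2, x axis) for each of the 34 genes, with bars for the 95% confidence interval of the limma fit and symbols for the compartment. The intervals span -0.52 to 0.27 in all, and 28 include 0.

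Among cytosolic enzymes outside the multisynthetase complex, the largest difference was that of Gars, the glycine enzyme, whose single gene supplies both cytosol and mitochondria. Gars read 9.84, 9.92 and 9.98 in Ppif-/- hearts and 10.12, 10.11 and 10.09 in WT hearts. The 3 Ppif-/- values lay below the 3 WT values, with a difference of -0.20 ± 0.07 (SE, adjusted p = 0.26). Farsa, the alpha subunit of the phenylalanine enzyme, read 7.98, 7.87 and 8.03 in Ppif-/- and 8.11, 8.10 and 8.20 in WT hearts (-0.18 ± 0.07, adjusted p = 0.37). Its partner Farsb, the beta subunit, read 10.10, 10.23 and 9.98 against 10.14, 10.09 and 10.11, and the genotypes overlapped (-0.02 ± 0.08). The 2 subunits of this enzyme thus gave different values, but the difference between them was not tested.

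Cars, the cysteine enzyme, read 8.30, 8.22 and 8.23 in Ppif-/- hearts and 8.42, 8.44 and 8.41 in WT hearts (-0.17 ± 0.06, adjusted p = 0.30). For the histidine enzyme Hars the values were 8.41, 8.33 and 8.31 against 8.54, 8.55 and 8.47 (-0.17 ± 0.07, adjusted p = 0.34). Wars, the tryptophan enzyme and a gene known to respond to interferon, read 9.48, 9.49 and 9.44 against 9.54, 9.72 and 9.63 (-0.16 ± 0.07, adjusted p = 0.40). In these 3 genes and in Vars (-0.08 ± 0.06), the valine enzyme, the genotypes did not overlap. The enzymes for tyrosine (Yars, -0.06 ± 0.07), threonine (Tars, -0.04 ± 0.08) and serine (Sars, -0.01 ± 0.07) had overlapping hearts. Nars, which charges asparagine, read 10.74, 10.63 and 10.58 in Ppif-/- and 10.61, 10.62 and 10.61 in WT hearts. Its difference of 0.03 ± 0.07 rested on Ppif-/- heart 1, without which it was -0.0093.

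The 7 measured enzymes of the multisynthetase complex gave 0 calls and 0 genes at an unadjusted limma p under 0.05. Among all tested probe sets 1.09% were called, and 6.81% were lower and 6.1% higher at that p. The differences of the 7 enzymes ran from -0.13 to 0.02 with a median of -0.08, as it was for the 11 cytosolic enzymes outside the complex. The averages by heart were less alike, with each gene set against its own mean. In Ppif-/- hearts 1, 2 and 3 the 7 averaged 0.0059, -0.046 and -0.062, and the 11 averaged -0.033, -0.039 and -0.070. In WT hearts 1, 2 and 3 the values were 0.0048, 0.082 and 0.015, and 0.028, 0.069 and 0.044. The genotypes thus overlapped for the 7 and not for the 11, which was not tested. Of the 7, all among the brighter probe sets, 6 were below 0, beside 50.8% of all tested and 54.3% of the brighter probe sets. In 3 of the 7 every Ppif-/- heart lay below every WT heart, beside 10.6% of all tested and 15.1% of the brighter ones. Eprs, which charges both glutamate and proline, read 9.76, 9.71 and 9.67 in Ppif-/- hearts and 9.72, 10.01 and 9.80 in WT hearts. WT heart 2 stood above the other hearts, and the genotypes overlapped (-0.13 ± 0.09). Without WT heart 2 the Eprs difference was -0.043. Kars, the lysine enzyme, which like Gars serves both compartments, read 9.84, 9.87 and 9.78 against 9.91, 9.92 and 9.91, without overlap (-0.09 ± 0.06). The methionine enzyme Mars (-0.11 ± 0.07) and the isoleucine enzyme Iars (-0.08 ± 0.07) also had every Ppif-/- heart below every WT heart. A further Iars probe set also stood at -0.08 ± 0.07, with overlapping hearts. Lars for leucine (-0.06 ± 0.08), Rars for arginine (-0.03 ± 0.06) and Qars for glutamine (0.02 ± 0.06) overlapped between genotypes.

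The hearts of a genotype were not alike for the cytosolic enzymes. When each gene was set against its own mean over the 6 hearts, the 18 genes averaged -0.018, -0.041 and -0.067 in Ppif-/- hearts 1, 2 and 3 and 0.019, 0.074 and 0.033 in WT hearts 1, 2 and 3. WT heart 2 was the highest of the 6 hearts for 9 of the 18 genes, and Ppif-/- heart 3 the lowest for 9. Over all tested probe sets WT heart 2 was highest in 23.1% and lowest in 22.0%, and Ppif-/- heart 3 was lowest in 19.1% and highest in 19.7%. WT heart 2 also had the smallest array weight in limma, 0.513 against 0.734 to 1.66 for the other hearts, so this array was the most variable across probe sets in general. Without WT heart 2 the median cytosolic difference was -0.051 in place of -0.080, and 15 of 18 genes were below 0. The 16 mitochondrial genes averaged -0.062, 0.017 and -0.035 in the Ppif-/- hearts and 0.048, 0.011 and 0.021 in the WT hearts, so that Ppif-/- heart 2 lay among the WT hearts.

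Vars2, the mitochondrial valine enzyme, had the largest difference of all members. It read 7.60, 7.65 and 7.65 in Ppif-/- hearts and 8.02, 7.91 and 8.07 in WT hearts, so that the genotypes were apart by more than the spread within either. The difference was -0.36 ± 0.07 (95% interval -0.52 to -0.20), a 1.29-fold lower level, with an adjusted limma p of 0.0633 that missed the threshold. It passed when only the brighter probe sets were tested (0.0244), with a variance trend (0.0423) or with array weights (0.0282), and not without any single heart (0.0712 to 0.195). On all 6 hearts it also missed the threshold with the replicate number as a block (0.145), on all probe sets (0.154), after quantile normalisation (0.0771) or centring (0.0602), and with robust variance estimates (0.0661).

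Iars2, the mitochondrial isoleucine enzyme, read 9.85, 9.89 and 9.83 in Ppif-/- and 9.97, 10.17 and 10.01 in WT hearts (-0.19 ± 0.08, adjusted p = 0.33). Aars2, the mitochondrial alanine enzyme, read 7.64, 7.71 and 7.64 against 7.76, 7.78 and 7.87 (-0.14 ± 0.07, adjusted p = 0.42). Both had every Ppif-/- heart below every WT heart, as had Fars2, the single-chain phenylalanine enzyme (-0.06 ± 0.06). Hars2 for histidine stood at -0.14 ± 0.08, with Ppif-/- heart 2 at 8.55 among the WT hearts at 8.53 to 8.63.

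On the other side of 0, Nars2 for asparagine (0.09 ± 0.07), Rars2 for arginine (0.09 ± 0.07) and Sars2 for serine (0.09 ± 0.07) had the largest values, each with overlapping hearts. Rars2 read 8.24, 8.36 and 8.30 in Ppif-/- and 8.24, 8.25 and 8.16 in WT hearts. Lars2, the leucine enzyme, varied most between hearts, with 7.64, 7.83 and 7.58 against 7.76, 7.47 and 7.77 (0.02 ± 0.11). Its low value was WT heart 2, the heart that was high for many cytosolic enzymes. Pars2 for proline read 5.83, 6.03 and 6.02 against 5.90, 6.03 and 5.92 (0.01 ± 0.08). Ears2 (glutamate, -0.08), Cars2 (cysteine, -0.07), Wars2 (tryptophan, -0.04), Yars2 (tyrosine, -0.03), Mars2 (methionine, -0.02) and Tars2 (threonine, 0.0049) overlapped between the genotypes too.

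For 15 amino acids a cytosolic and a mitochondrial enzyme were both measured, which gave 16 pairs because phenylalanine has 2 cytosolic subunits. Both partners lay below 0 in 10 pairs, both above 0 in 1 pair, asparagine, and the cytosolic enzyme below and the mitochondrial above in 5. Since 16 of 18 cytosolic genes were below 0, these counts mostly repeat the signs of the mitochondrial enzymes. Fars2 and Eprs each enter 2 pairs. In the histidine pair the values were close, -0.17 for Hars and -0.14 for Hars2. In the valine pair they were -0.08 for Vars and -0.36 for Vars2, and in the isoleucine pair -0.08 for Iars and -0.19 for Iars2. The 5 pairs of opposite sign were leucine, arginine, serine, threonine and proline, with all 10 values between -0.13 and 0.09. Synthetases of class I and class II, which differ in the fold of the catalytic domain, had medians of -0.07 (19 genes) and -0.04 (15 genes). Each class gave 0 calls, beside 1.09% of all tested probe sets.

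**Figure D3:**
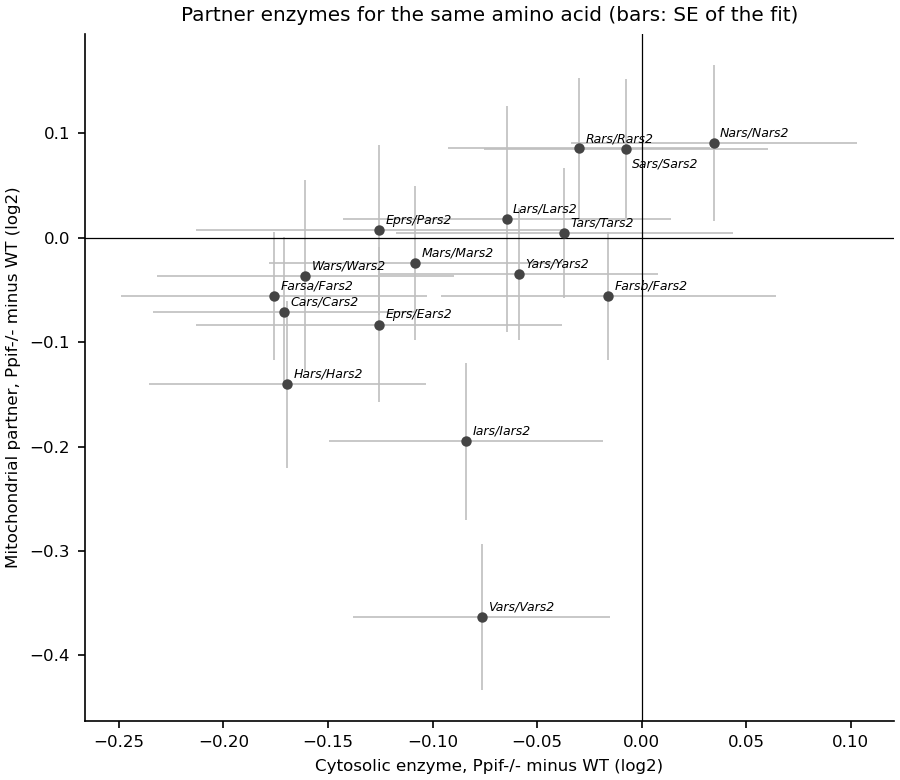
Each point is a cytosolic enzyme (x axis) and its mitochondrial partner for the same amino acid (y axis), both as the difference between Ppif-/- and WT hearts on the log2 scale, with bars for the standard error of the fit. Of the 16 pairs 10 lie below 0 on both axes, and Vars/Vars2 lies lowest at -0.36 on the mitochondrial axis.

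The synthetases known as ATF4 targets were set beside the other genes of the amino acid response. Of 12 listed ATF4 target synthetases 11 were measured and 0 passed, beside 1.09% of all tested probe sets. Of these 11 genes 10 lay below 0, beside 50.8% of all tested and 54.3% of the brighter probe sets, and their median was -0.08. Set against each gene's own mean, the 11 averaged -0.016, -0.046 and -0.072 in Ppif-/- hearts 1, 2 and 3. In WT hearts 1, 2 and 3 they averaged 0.0061, 0.099 and 0.029. WT heart 2, the array of smallest weight, was the highest heart for 6 of the 11. The upper 95% bound of any of the 11 genes was 0.19. Of 24 measured amino acid response genes 1 rose and 0 fell in limma, beside 0.624% higher and 0.461% lower among all tested probe sets, and their median was 0.02. Asns, asparagine synthetase, read 8.44, 8.13 and 8.15 in Ppif-/- hearts and 7.16, 7.20 and 7.24 in WT hearts, a rise by 1.04 ± 0.10 (adjusted p = 0.0030). Atf4 itself read 8.16, 8.15 and 8.15 against 8.04, 8.33 and 8.12 (-0.01 ± 0.09), and Nars, which consumes the asparagine that the Asns enzyme makes, has been given above at 0.03. The next genes by p were Cebpb (0.54 ± 0.19, adjusted p = 0.29) and Atf3 (0.58 ± 0.22, adjusted p = 0.32), with no overlap between genotypes for Cebpb and overlap for Atf3. On the other side of 0, the serine synthesis genes Phgdh (-0.20 ± 0.09, adjusted p = 0.37) and Psph (-0.16 ± 0.07, adjusted p = 0.37) had unadjusted p under 0.05 in limma, with every Ppif-/- heart below every WT heart.

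The promoters of Asns, Gars and Tars are shown because they hold the ATF4 response element searched for, TGATGNAAN on either strand, while only Asns was called. The sequences are the 150 bases before the RefSeq transcription start in assembly GRCm38.p6, 5′ to 3′ on the gene's strand, with the match in capitals. Asns lies at chr6:7693210-7693359 on the minus strand, Gars at chr6:55037851-55038000 on the plus strand and Tars at chr15:11399659-11399808 on the minus strand.
Asns: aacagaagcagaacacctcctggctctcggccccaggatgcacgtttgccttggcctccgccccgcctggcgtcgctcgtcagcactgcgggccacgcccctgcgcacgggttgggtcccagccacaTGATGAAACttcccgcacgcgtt
Gars: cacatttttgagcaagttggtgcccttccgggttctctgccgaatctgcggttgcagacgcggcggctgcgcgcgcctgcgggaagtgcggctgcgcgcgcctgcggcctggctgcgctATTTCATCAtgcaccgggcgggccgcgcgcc
Tars: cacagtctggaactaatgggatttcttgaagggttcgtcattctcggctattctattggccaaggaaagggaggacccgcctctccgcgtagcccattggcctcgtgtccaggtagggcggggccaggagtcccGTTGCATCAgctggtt
The match reads forward in Asns and on the opposite strand in Gars and Tars. Of the 25 measured synthetases with a promoter in the table, these 2 held the element within 250 bases before the start, and 3.44% of all 32851 promoters in the table did. A match is a description of letters, not evidence of binding. The values beside them were 1.04 for Asns, -0.20 for Gars and -0.04 for Tars.

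Aimp1, the scaffold protein of the multisynthetase complex that is also the source of a secreted cytokine, fell in Ppif-/- hearts. It was the 1 called gene among the complex's 3 scaffold proteins, beside 0.461% of all tested and 0.735% of the brighter probe sets called lower. It read 8.60, 8.61 and 8.54 in Ppif-/- hearts and 9.02, 8.90 and 8.99 in WT hearts, with no overlap. The difference was -0.39 ± 0.07, a 1.31-fold lower level (adjusted p = 0.0460). The call was lost without any single heart (adjusted p = 0.0642 to 0.166) and when all probe sets of the array were tested (0.123). Aimp2 (-0.03 ± 0.07) and Eef1e1, which encodes AIMP3 (0.11 ± 0.09), did not pass.

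Other translation factors, with mitochondrial charging partners and tRNA-modifying enzymes, gave 0 calls in limma, beside 1.09% of all tested probe sets. The counts at an unadjusted p under 0.05 stand beside 6.81% lower and 6.1% higher among all tested probe sets. Among 8 cytosolic elongation and release factors, 1 had an unadjusted p under 0.05, Eef1d, an exchange factor subunit for the elongation factor that carries charged tRNA to the ribosome (-0.19 ± 0.07, adjusted p = 0.30). For that carrier, Eef1a1 stood at 0.10 ± 0.06 with every Ppif-/- heart above every WT heart. Its other isoform, Eef1a2, stood at -0.06 ± 0.06 with every Ppif-/- heart below every WT heart. The mitochondrial list joined 18 translation factors, charging partners and tRNA-modifying enzymes. Of these, 2 had an unadjusted limma p under 0.05, the tRNA-modifying enzyme Trit1 (-0.37 ± 0.13, adjusted p = 0.28) and the release factor family member Mtrf1 (-0.26 ± 0.10, adjusted p = 0.32). The median of that list was -0.06, with 13 of 18 genes below 0 beside 50.8% of all tested and 54.3% of the brighter probe sets. Among 7 genes of eIF2, its kinases and phosphatase subunits, which govern ATF4 translation, 0 passed in limma, with Eif2s2 (-0.22 ± 0.09) and Eif2ak1 (-0.21 ± 0.10) first by p.

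**Figure D4:**
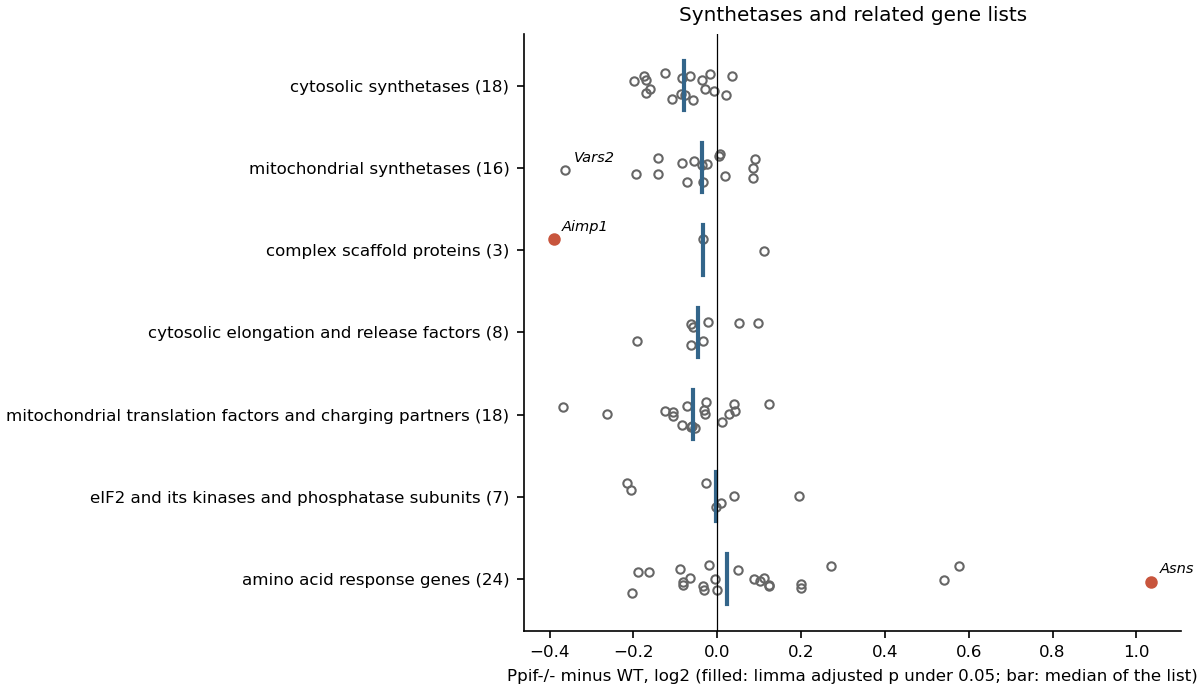
Each point is a gene, placed by the difference between Ppif-/- and WT hearts (log2, x axis) within its list, with the number of measured genes in parentheses. Filled points passed an adjusted limma p of 0.05, which were Aimp1 at -0.39 and Asns at 1.04, and the vertical bars are list medians, -0.080 for cytosolic and -0.036 for mitochondrial synthetases.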

How the data were processed

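The authors deposited log2 expression values per probe set for 6 hearts, made with RMA per the submitters' processing notes. The software version was not given in the sources used here. Small differences in dim probe sets are understated by this method, and arrays are brought to a common distribution. Values were used as deposited. Gene symbols came from the platform's annotation table, and the 23410 probe sets that carry a symbol were fitted with limma 3.58.1 in R 4.3.3 (lmFit, eBayes, 2-sided, Benjamini-Hochberg over all of them, threshold 0.05). A gene with several probe sets was represented by the one of highest mean. With 3 hearts a side, the smallest exact permutation p is 0.1, so none was used. Probe set means served to choose genes to name and to define the brighter probe sets, and no abundance was read from them. No set test was run; lists were described by counts and medians.

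Members, lists and the rule for named genes were chosen with earlier results of these data known. The rule took members with an unadjusted p under 0.05, the 3 largest differences and the highest and lowest means per compartment, up to 4 other members as examples, and called genes or the 2 smallest p of related lists. The remaining members, Atf4, Phgdh, Psph, Eef1a2 and the uncalled cell type markers were added after their values were seen. Alternatives were a replicate block, other probe set filters, scaling, variance priors, weights, and leaving out each heart. The procedure was tested on simulated arrays, with 5.14% false calls among calls and 0 calls when nothing was changed. Simulated probe sets varied independently, without effects shared within a heart, so these rates may not hold for the real arrays. Promoters came from RefSeq; Cars, Hars, Hars2, Lars, Nars, Pars2, Rars, Vars and Wars were not matched.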

Additional observations from a re-analysis of the deposited data

How the results depend on the processing

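With 3 hearts per genotype, standard errors of 0.06 to 0.11 limited what could be called. Over all tested probe sets the count of calls was 254, and 405 on the brighter probe sets, 131 on all probe sets, 453 with a variance trend, 386 with array weights and 131 to 171 without 1 heart. Mitochondrial synthetase calls rose from 0 to 1 (Vars2) on the brighter probe sets, with the trend (1) and with weights (1); cytosolic calls were 0 in every setting run. The cytosolic median was -0.0912 to -0.0506 without 1 heart, and the mitochondrial -0.0574 to -0.0194, the latter without Ppif-/- heart 1. Under the other scalings the medians were -0.066 and -0.039 (quantile) and -0.099 and -0.055 (centred arrays), with 15 and 11, and 16 and 13, genes below 0.

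Deviations of same-numbered hearts correlated at -0.077, -0.061 and 0.118, and 2 of 6 hearts correlated best with their own number. With 3 hearts per genotype, these values cannot settle whether the replicate numbers pair the hearts. With the replicate number as a block, 160 probe sets were called, 3 synthetases were lower at an unadjusted p under 0.05 in place of 6 (also 3 without any 1 heart), and Aimp1 was not called (adjusted p = 0.125).

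Of the 34 genes 25 kept their sign in every setting. The 9 others, all uncalled, crossed 0. Quantile normalisation gave Sars 0.0082 and Pars2 -0.014; centring gave Lars2 -6e-04, Pars2 -0.012 and Tars2 -0.014; weights gave Farsb 0.013, Tars 0.013 and Wars2 0.0035. Without 1 heart the ranges were -0.0093 to 0.067 for Nars, -0.096 to 0.023 for Tars, -0.073 to 0.0071 for Mars2, -0.042 to 0.014 for Sars, -0.081 to 0.072 for Lars2, -0.027 to 0.072 for Pars2, -0.0096 to 0.021 for Tars2, -0.080 to 0.045 for Farsb and -0.12 to 0.013 for Wars2. The cause of these changes was not tested. The recalculation of the counts below 0, at an unadjusted p under 0.05 and without overlap, and of Aimp1, Asns and Ppif, was added after seeing the data.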
